A study of Ambystoma mexicanum with 15 samples.

Results

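In the axolotl spinal cord, 81 named probe sets of 76 genes stood apart 3 days after injury: 47 probe sets of 44 genes peaked then, and 34 probe sets of 32 genes had a trough. They were chosen from 10951 named probe sets (8639 genes) on an axolotl expression array. A probe set was a peak when its mean log2 value at 3 days lay at least 0.8, or 1.74-fold, above each of the means of the uninjured, 1 day and 7 day groups, and a trough when it lay at least 0.8 below each of them. REG4, RGN, CDH17, SLC13A3, MBP and FOS were left out by the rule, and 4 of their probe sets passed the threshold. Of the 10944 named probe sets that could be chosen, 0.429% were peaks and 0.311% were troughs. Of 9084 probe sets without a gene name, 82 passed as peaks (0.903%) and 27 as troughs (0.297%). The 3 day values chose the members, so differences from 3 days are given as descriptions without a test. The margin below is the 3 day mean minus the nearest of the other 3 means.

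The study followed the regenerating cord of white axolotls of 2 to 3 cm at 1 month of age. Each of 5 groups had 3 arrays, and each array held RNA from the tissue of 10 pooled animals. The groups were ivermectin, injected into the central canal with the dye Fast Green directly before a piece of cord was removed and sampled at 1 day; uninjured cord, which the labels call mature; and cord at 1, 3 and 7 days after the same removal. The labels do not say whether the 1, 3 and 7 day animals received a vehicle injection, nor how much tissue around the cord was taken. In pooled tissue, fewer cells of a type and less RNA per cell cannot be told apart.

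Axolotls rebuild a severed cord from ependymoglial cells, which line the central canal and divide after injury, while macrophages clear debris and the matrix around the wound is remodelled. Ivermectin opens glutamate-gated chloride channels of invertebrates and also acts on ligand-gated channels of vertebrates, among them glycine receptors. Many of the peak genes are best known from sterol, lipid and amino acid metabolism, solute transport and the muscle sarcomere. Of the 32 trough genes, 8 encode matrix proteins, several of them of cartilage and eye, and 4 act in cell division or DNA repair.

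Array medians lay between 5.8 and 5.89 and lower quartiles between 4.21 and 4.28, and a level under the lower quartile was not shown to be above background. The glial genes GFAP and VIM reached group means of 9.67 to 10.81 and 13.2 to 13.92, and the neuronal gene STMN2 9.74 to 11.11. The synaptic gene SYT1 and the leukocyte gene PTPRC stayed below the lower quartile on all arrays. Other markers of neurons and macrophages did not. The neuronal genes NEFL, NEFM, TUBB3 and GAP43 had group means of 7.13 to 10.57, while ELAVL4 was dim at 4.06 to 4.56. The macrophage genes CSF1R and C1QB had group means of 6.38 to 6.56 and 7.0 to 9.13. The muscle gene CKM read 14.08 to 14.41, near the top of the scale in every group. Poly-A control RNA, which is added in the laboratory and is no part of the tissue, averaged 7.43 ± 0.0474 with ivermectin, 7.54 ± 0.0286 in uninjured cord, 8.08 ± 0.0441 at 1 day, 8.33 ± 0.0955 at 3 days and 7.94 ± 0.14 at 7 days (SD, n = 3 each). It was thus highest at 3 days, as the peaks were, and its part in the results was not tested. The highest value on an array was 14.52 to 14.56 at 1, 3 and 7 days, and 14.36 to 14.4 in ivermectin and uninjured arrays. Whatever separates these sides of the study cannot be told apart from injury without ivermectin. Comparisons that cross between them therefore carry it, and comparisons within a side do not. The poly-A means also differed within a side, from 7.94 to 8.33 at 1, 3 and 7 days, and what this did to comparisons within a side was not tested.

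**Figure D1:**
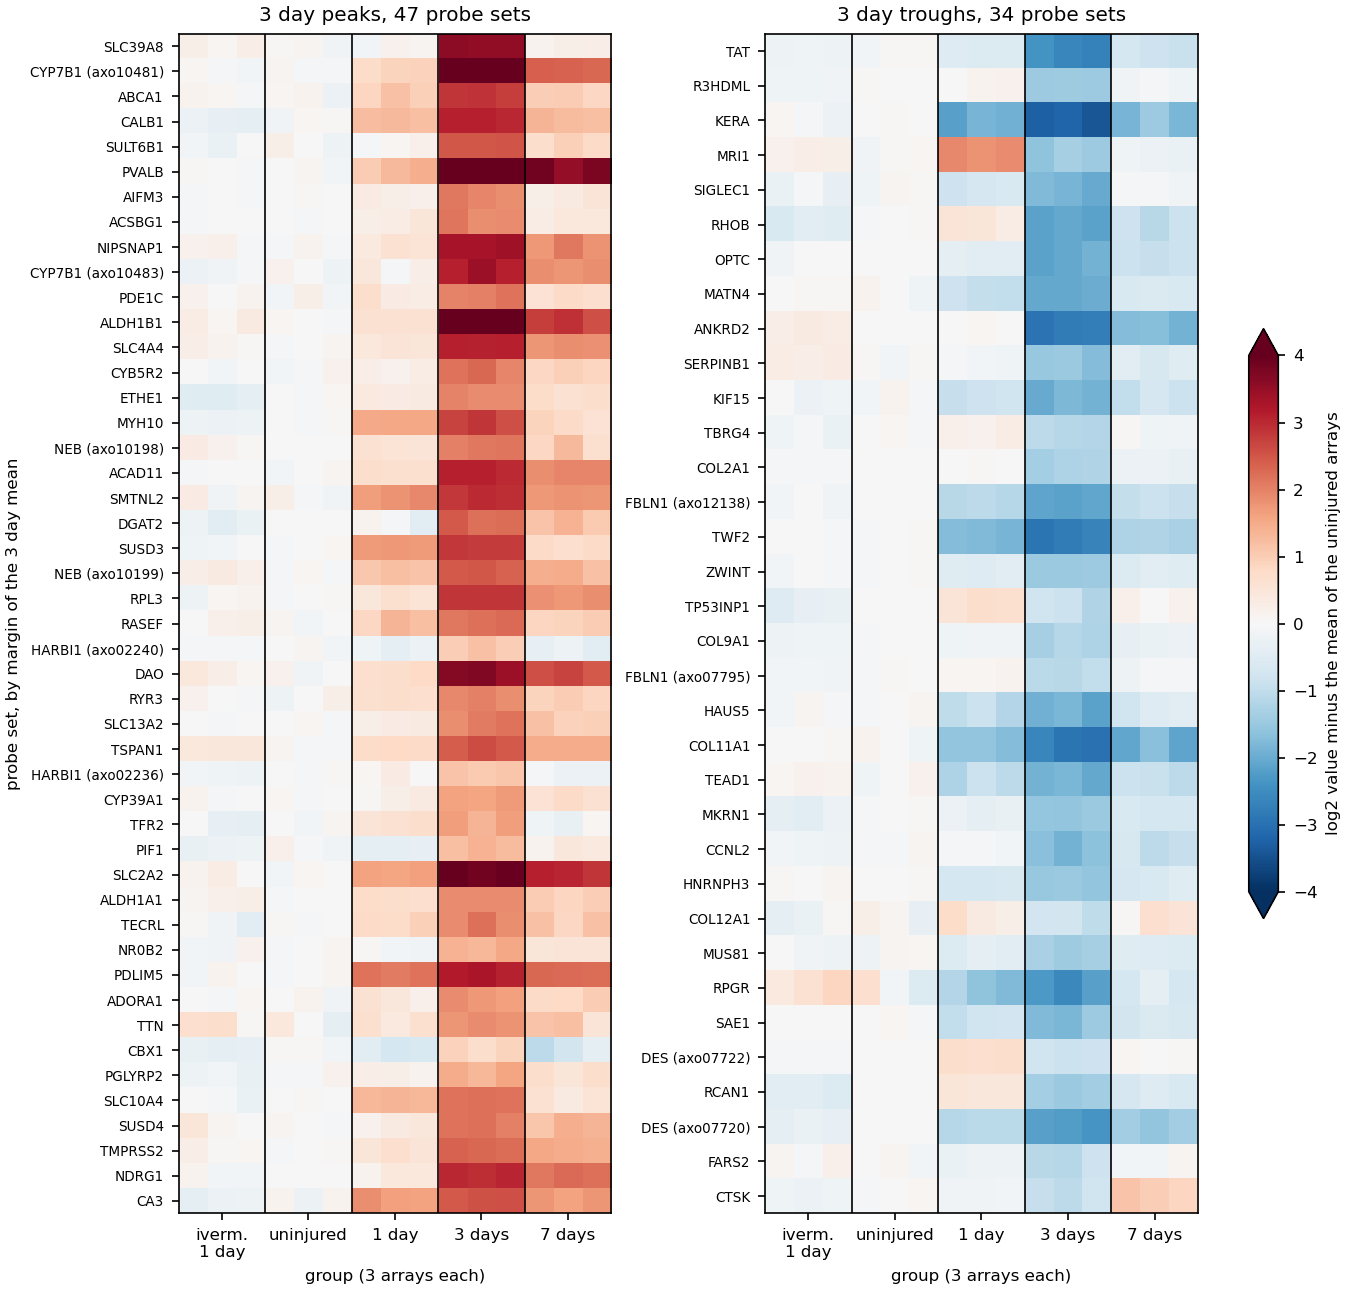
Each row is a member probe set, ordered by margin, and each column an array of the group named below it. The colour gives the log2 value minus the mean of the uninjured arrays, and values past 4 in either direction share the end colour. The 3 day arrays of all 47 peaks and all 34 troughs lie past the arrays of the other 4 groups, which the rule largely fixes, and the ivermectin columns are pale.

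The margins of the peaks ran from 0.81 to 3.35, with a median of 1.05, and 29 of the 47 reached 1. Their 3 day means exceeded the uninjured means by 0.84 to 5.4, with a median of 2.3. In 11 of the 47 all 3 uninjured arrays lay below the lower quartile, so those differences start from levels not shown to be above background. The nearest mean was that of 7 days in 37 peaks, of 1 day in 8 and of uninjured cord in 2. The 3 arrays of 3 days lay above all 9 uninjured, 1 day and 7 day arrays in 47 of 47 peaks. Among all 20035 probe sets, the 3 day arrays did not overlap those of uninjured cord in 64.7%, those of 1 day in 50.1% and those of 7 days in 49.8%. The 3 day mean was the highest of the 4 in 27.1% of all probe sets and the lowest in 21.8%.

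Sterol and lipid genes gave 8 peaks of 7 genes. CYP7B1, which hydroxylates oxysterols on the way to bile acids, had the largest margin among them and was a peak on both of its probe sets. The brighter one (axo10481) read 6.39, 6.19 and 6.23 in uninjured cord, 7.00, 7.16 and 7.18 at 1 day, 10.56, 10.69 and 10.52 at 3 days, and 8.66, 8.62 and 8.56 at 7 days. The groups did not overlap from uninjured cord to 1 day, 7 days and 3 days, in that order of level. The other CYP7B1 probe set had a margin of 1.39. ABCA1, which exports cholesterol from cells, read 4.45, 4.51 and 4.15 in uninjured cord, 5.24, 5.54 and 5.32 at 1 day, 7.23, 7.26 and 7.13 at 3 days, and 5.35, 5.37 and 5.21 at 7 days. Its 1 day and 7 day arrays overlapped and lay between those of uninjured cord and 3 days. These values are of the ABCA1 probe set axo11129. A brighter one that is no member, axo11131, was lowest at 3 days, at 7.87, and averaged 7.98 in uninjured cord, 8.53 at 1 day and 8.12 at 7 days. CYP39A1, another oxysterol hydroxylase, had a margin of 0.97, and NR0B2, a nuclear receptor that represses bile acid synthesis, 0.92. DGAT2, which makes triglycerides, stood at 5.13 ± 0.0326 in uninjured cord, 5.0 ± 0.295 at 1 day, 7.43 ± 0.131 at 3 days and 6.32 ± 0.167 at 7 days (SD, n = 3 each). Its uninjured and 1 day arrays overlapped. ACAD11, an acyl-CoA dehydrogenase, had a 3 day mean of 9.77 and a margin of 1.14.

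Solute carriers gave 5 peaks, and the largest margin of all members belonged to SLC39A8, an importer of zinc and manganese. SLC39A8 read 6.73, 6.79 and 6.54 in uninjured cord, 6.58, 6.87 and 6.79 at 1 day, 10.28, 10.25 and 10.24 at 3 days, and 6.84, 6.92 and 6.95 at 7 days. The 3 day mean was 10.2-fold above that of 7 days, and the 1 day arrays overlapped the uninjured ones. SLC4A4 (probe set axo09472), a sodium bicarbonate cotransporter, read 5.99, 6.05 and 6.17 in uninjured cord, and 6.49, 6.58 and 6.56 at 1 day. It read 9.18, 9.14 and 9.17 at 3 days, and 7.84, 7.93 and 7.91 at 7 days. None of these 4 groups overlapped. A dimmer SLC4A4 probe set, axo09473, was highest at 1 day. It averaged 4.16 in uninjured cord, 5.02 at 1 day, 4.95 at 3 days and 4.64 at 7 days. Another, axo06020, averaged 3.79 to 4.23, near or below the lower quartiles. The glucose transporter SLC2A2 read 3.13, 3.34 and 3.27 in uninjured cord, below the lower quartile of those arrays, 4.85, 4.84 and 4.88 at 1 day, 7.25, 7.12 and 7.20 at 3 days, and 6.35, 6.29 and 6.11 at 7 days. The dicarboxylate transporter SLC13A2 was dim throughout, at 3.19 in uninjured cord and 5.23 at 3 days. SLC10A4, a relative of the bile acid transporters found on synaptic vesicles in mammals, already stood at 7.22 at 1 day and reached 8.05 at 3 days.

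Enzymes of amino acids, aldehydes, sulfur and redox reactions gave 8 peaks of 8 genes. ALDH1B1, a mitochondrial aldehyde dehydrogenase, read 4.04, 3.94 and 3.86 in uninjured cord, 4.55 on each of the 1 day arrays, 8.07, 8.04 and 8.14 at 3 days, and 6.71, 6.87 and 6.54 at 7 days. The groups were separate, with 7 days nearest to 3 days. DAO, which oxidises D-amino acids, averaged 4.73 in uninjured cord, 5.45 at 1 day, 8.34 at 3 days and 7.30 at 7 days. ALDH1A1, which makes retinoic acid from retinaldehyde, was already bright at 8.36 in uninjured cord and reached 10.25 ± 0.0096 at 3 days (SD, n = 3). ETHE1 (probe set axo13643), a mitochondrial enzyme of sulfide breakdown, was the brightest peak at 3 days, with 11.07. SULT6B1 (probe set axo01875) had a margin of 1.69, AIFM3 (probe set axo06904) of 1.6 and NIPSNAP1, a mitochondrial protein, of 1.45.

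Genes of muscle and calcium handling gave 10 peaks of 9 genes. The PVALB probe set, for the calcium buffer of fast muscle and of some neurons, read 3.96, 4.03 and 3.81 in uninjured cord, 4.94, 5.23 and 5.38 at 1 day, 9.40, 9.30 and 9.30 at 3 days, and 7.80, 7.46 and 7.68 at 7 days. All 3 uninjured arrays lay below the lower quartile, so the difference of 5.4 between 3 days and uninjured cord starts from a level not shown to be above background. CALB1, a calcium buffer of neurons, kidney and gut, read 7.63, 7.84 and 7.80 in uninjured cord, 8.98, 9.07 and 8.96 at 1 day, 10.86, 10.87 and 10.78 at 3 days, and 9.11, 9.04 and 8.96 at 7 days. The 1 day and 7 day arrays of CALB1 overlapped each other and nothing else. TTN and NEB, giant proteins of the sarcomere, had margins of 0.86 for the one and of 1.15 and 1.06 for both NEB members. RYR3, a calcium release channel, had a margin of 1.02, and the Z-disc protein PDLIM5 (probe set axo16899), whose 1 day mean was 2.14 above that of uninjured cord, of 0.9. A PDLIM5 probe set that is no member, axo16877, averaged 8.18 in uninjured cord, 7.98 at 1 day, 7.2 at 3 days and 7.32 at 7 days, so it was lowest where the member was highest.

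The remaining 16 peaks were 10 surface, secreted and signalling genes and 6 probe sets of nuclear, cytoskeletal and ribosomal genes. Among these were ADORA1, an adenosine receptor, with a margin of 0.9 and the calmodulin-dependent phosphodiesterase PDE1C with 1.38. TFR2, which senses iron-loaded transferrin, averaged 4.25 in uninjured cord, 4.86 at 1 day, 5.81 at 3 days and 4.12 at 7 days, so its 7 day mean was back below the uninjured one. MYH10 (probe set axo11574), a non-muscle myosin, averaged 4.54 in uninjured cord, 6.08 at 1 day, 7.25 at 3 days and 5.29 at 7 days. A brighter MYH10 probe set, axo11565, was highest at 7 days: it averaged 9.17, 9.91, 10.15 and 10.44 in the same order. Of the 5 further MYH10 probe sets, 2 were highest at 3 days and 3 lay between the other groups. CBX1 (probe set axo12442), a heterochromatin protein, read 6.35, 6.36 and 6.20 in uninjured cord, 5.88, 5.62 and 5.71 at 1 day, 7.24, 7.01 and 7.20 at 3 days, and 5.25, 5.59 and 5.92 at 7 days. A brighter CBX1 probe set, axo12445, averaged 7.02 in uninjured cord, 6.72 at 1 day, 6.83 at 3 days and 7.16 at 7 days. It was thus highest where the member mean was lowest. Another, axo12443, averaged 3.65 to 3.78, below the lower quartiles. The CBX1 member and a probe set of HARBI1, a gene derived from a transposase, were the peaks whose nearest group was uninjured cord. Just inside the threshold stood NDRG1, a stress-induced gene, at 0.809, the muscle carbonic anhydrase CA3 at 0.813 and the serine protease TMPRSS2 at 0.816. Just outside were MYBPC2 at 0.786, and a second ALDH1A1 probe set and PLS1, both at 0.778.

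**Figure D2:**
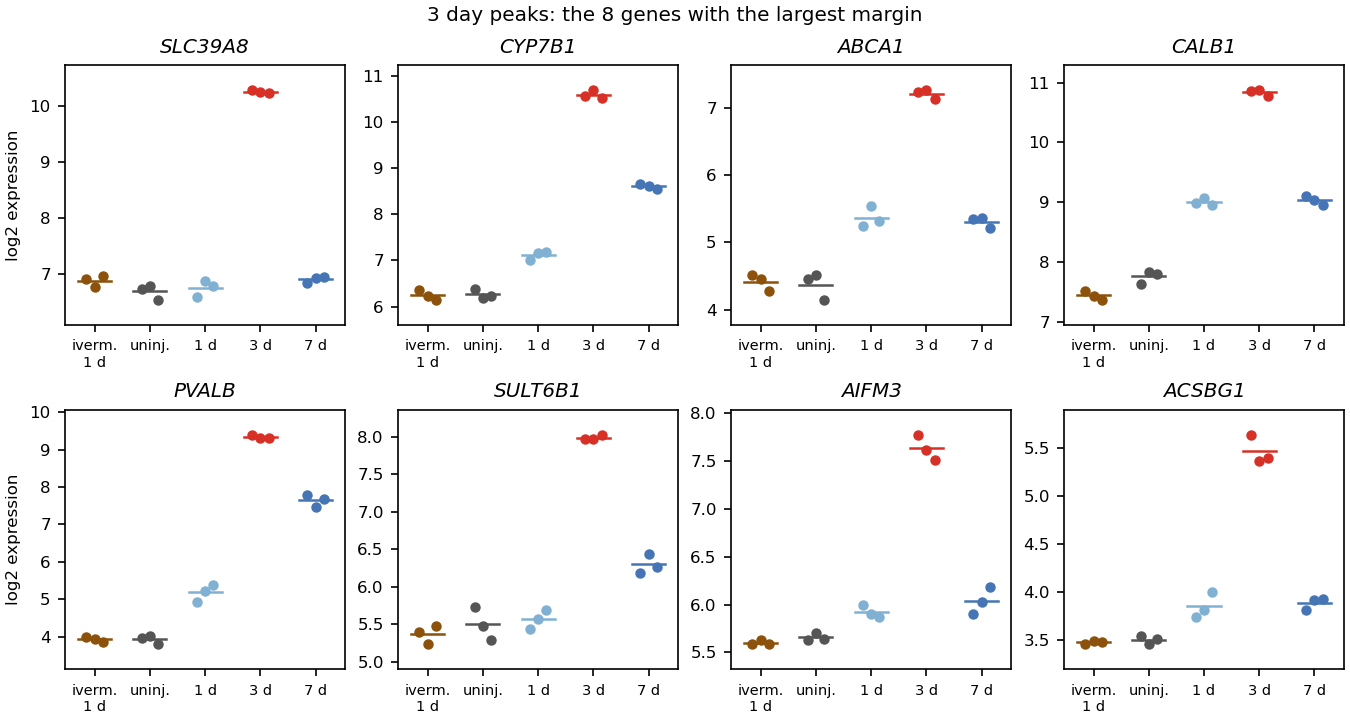
Log2 expression on each array (points) and group mean (lines) of the 8 peak genes with the largest margin, on axes that do not start at 0. In SLC39A8 the 7 day mean is back to 0.22 above the uninjured mean, while in PVALB the 7 day arrays, at 7.46 to 7.80, stay far above the uninjured arrays, at 3.81 to 4.03.

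The margins of the troughs ran from -1.76 to -0.8, with a median of -0.96, and 14 of 34 reached 1 in size. Their 3 day means lay below the uninjured means by 0.82 to 3.3 (differences of -0.82 to -3.3, median -1.62). The nearest mean was that of 7 days in 18, of 1 day in 13 and of uninjured cord in 3. All 3 arrays of 3 days lay below all 9 uninjured, 1 day and 7 day arrays in 34 of 34 troughs. HAUS5 was the single trough whose 3 day arrays all fell below the lower quartile.

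Matrix genes made up 9 troughs of 8 genes. KERA, a keratan sulfate proteoglycan best known from the cornea, read 9.87, 9.94 and 9.89 in uninjured cord, 7.74, 8.03 and 7.97 at 1 day, 6.62, 6.69 and 6.47 at 3 days, and 8.05, 8.44 and 8.08 at 7 days. The uninjured arrays stood far above all injured ones without ivermectin. MATN4, a matrilin of cartilage and other matrices, read 11.73, 11.62 and 11.44 in uninjured cord, 10.76, 10.66 and 10.61 at 1 day, 9.56, 9.54 and 9.61 at 3 days, and 11.01 ± 0.0044 at 7 days (mean and SD of the 3 arrays). All 4 groups were separate. COL2A1, the main fibrillar collagen of cartilage and notochord, read 12.25, 12.25 and 12.28 in uninjured cord, 12.26, 12.30 and 12.25 at 1 day, 10.90, 11.01 and 11.05 at 3 days, and 12.03, 12.02 and 11.97 at 7 days. Its uninjured and 1 day arrays overlapped, so on this probe set (axo07638) the drop came between 1 and 3 days. A dimmer COL2A1 probe set, axo07640, averaged 8.14 in uninjured cord, 7.06 at 1 day, 6.48 at 3 days and 6.59 at 7 days. It had thus already fallen at 1 day. COL9A1, which coats the COL2A1 fibrils, had a margin of -0.96, and COL11A1 (probe set axo00377), which lies inside them, of -0.89. A brighter COL11A1 probe set, axo00376, averaged 10.98 in uninjured cord, 11.48 at 1 day, 10.85 at 3 days and 11.53 at 7 days, so its 7 day mean was above the uninjured one where that of the member was below it. OPTC, a small leucine-rich protein of the eye, had a margin of -1.14. The 2 FBLN1 members, for a fibulin of elastic matrix, differed at 1 day: axo12138 averaged 8.73 at 1 day against 9.82 in uninjured cord, and axo07795 averaged 9.71 against 9.61. COL12A1 (probe set axo00383), another collagen, averaged 8.06 in uninjured cord, 8.5 at 1 day, 7.22 at 3 days and 8.47 at 7 days. Of its 4 further probe sets, 2 were lowest at 3 days, 1 lay between the other groups and 1 was highest.

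Genes of cell division and DNA repair gave 4 troughs. KIF15, a kinesin of the mitotic spindle, read 8.45, 8.69 and 8.51 in uninjured cord, 7.63, 7.72 and 7.76 at 1 day, 6.55, 6.74 and 6.67 at 3 days, and 7.57, 7.89 and 7.70 at 7 days. The 1 day and 7 day arrays overlapped midway between the other groups. The kinetochore gene ZWINT averaged 8.16 in uninjured cord, 7.67 at 1 day, 6.68 at 3 days and 7.66 at 7 days. HAUS5, of the augmin complex that branches spindle microtubules, had a margin of -0.95, and MUS81, a nuclease of recombination, of -0.83.

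TAT, which starts the breakdown of tyrosine, had the deepest trough. TAT read 8.36, 8.51 and 8.5 in uninjured cord, 7.96, 7.91 and 7.91 at 1 day, 6.07, 5.86 and 5.77 at 3 days, and 7.76, 7.64 and 7.58 at 7 days. MRI1, an isomerase of methionine salvage, ran differently: it read 6.56, 6.76 and 6.78 in uninjured cord, 8.62, 8.51 and 8.58 at 1 day, 5.09, 5.36 and 5.25 at 3 days, and 6.52, 6.45 and 6.43 at 7 days. The 1 day arrays of MRI1 were thus the highest, and its 3 day mean lay 3.34 below them. SIGLEC1, a sialic acid receptor of macrophages, read 6.81, 7.09 and 7.04 in uninjured cord, 6.16, 6.31 and 6.37 at 1 day, 5.22, 5.13 and 4.96 at 3 days, and 6.91, 6.93 and 6.84 at 7 days. Its 7 day arrays overlapped the uninjured ones again. CTSK, a collagen-cleaving cathepsin, averaged 7.71 in uninjured cord, 7.58 at 1 day, 6.78 at 3 days and 8.70 at 7 days.

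Stress and signalling genes gave 6 troughs. The small GTPase RHOB read 8.47, 8.56 and 8.59 in uninjured cord, 9.04, 9.01 and 8.85 at 1 day, 6.41, 6.5 and 6.4 at 3 days, and 7.70, 7.43 and 7.67 at 7 days. RCAN1, an inhibitor of calcineurin, and the p53 target TP53INP1 had the same order at 1 and 3 days, with 10.98 and 9.12 for RCAN1 and 7.22 and 5.64 for TP53INP1. ANKRD2, a stretch-responsive gene of muscle, stood at 8.14 ± 0.0079 in uninjured cord, 8.18 ± 0.0411 at 1 day, 5.30 ± 0.0996 at 3 days and 6.37 ± 0.112 at 7 days (SD, n = 3 each). SERPINB1, an inhibitor of neutrophil proteases, had a margin of -1.06 and TEAD1, a factor of the Hippo pathway, of -0.87. The other 11 troughs were R3HDML, the ciliary gene RPGR, the actin-binding gene TWF2, 2 DES probe sets and 6 genes of RNA, translation and protein modification. The uninjured arrays of RPGR read 8.22, 7.43 and 6.99, the widest spread of the members shown here. Just inside the threshold were CTSK and a DES probe set, both at -0.805, and FARS2 at -0.806. Just outside were CALD1 at -0.799 and AAAS and GFPT2, both at -0.795.

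**Figure D3:**
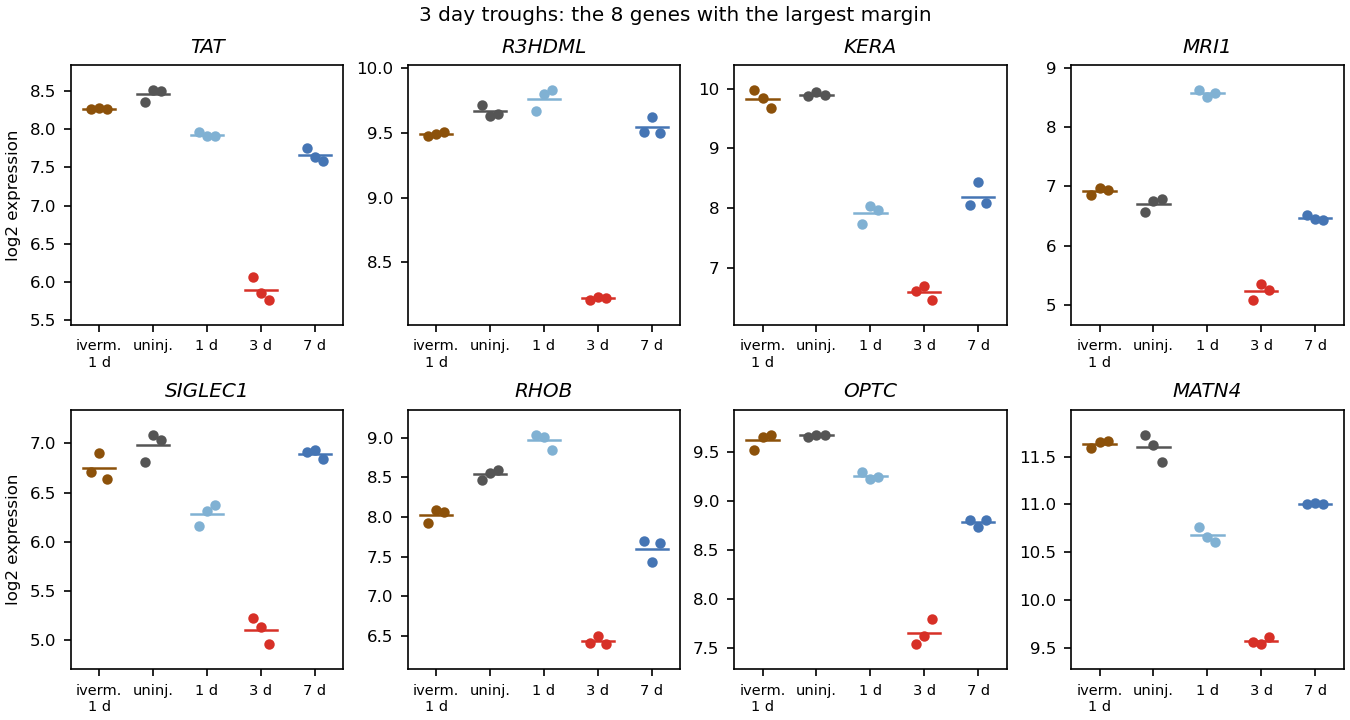
Log2 expression on each array (points) and group mean (lines) of the 8 trough genes with the largest margin, on axes that do not start at 0. MRI1 and RHOB are highest at 1 day, at 8.51 to 8.62 and 8.85 to 9.04, whereas KERA and MATN4 are highest in ivermectin and uninjured arrays.

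The members differed in how far they had returned by 7 days. Among peaks, the 7 day mean had undone 24.0% to 185.4% of the difference between 3 days and uninjured cord, with a median of 51.2%, and more than 50% in 25 of 47. Among troughs the share was 31.2% to 207.5%, with a median of 67.05%, and more than 50% in 29 of 34. A share over 100% means that the 7 day mean lay past the uninjured one. The rule requires some return in every member, so these shares describe it and are not tested. The lowest share among peaks was that of SLC2A2, at 24.0%, followed by NDRG1, at 27.0%.

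Expression at 7 days was set against uninjured cord with limma over all 20035 probe sets, with an adjusted p under 0.05 as a call. All arrays of both groups had entered the rule that chose the members, so the counts and differences describe them, and nothing is read from the counts against the share of all probe sets. Of the 47 peaks, 43 were higher at 7 days (91.5%, against 28.8% of all probe sets called higher) and 2 were lower (4.3%, against 28.9% called lower). The median difference of the peaks was 0.95, beside 0.01 over all probe sets. The arrays of both groups did not overlap in 45 peaks (95.7%) and 28 troughs (82.4%), against 62.6% of all probe sets. PVALB stood 3.71 ± 0.1 (SE) above uninjured cord, SLC2A2 3.0 ± 0.08 and ALDH1B1 2.76 ± 0.09. The uninjured arrays of these 3 genes all lay below the lower quartile, so these sizes start from levels not shown to be above background. The 2 lower peaks were the CBX1 probe set axo12442, at -0.72 ± 0.12, and a HARBI1 probe set (axo02240), at -0.33 ± 0.08. TFR2 differed by -0.13 ± 0.12 and was not called. Of the 34 troughs, 24 were lower at 7 days (70.6%) and 1 was higher (2.9%), with a median of -0.59. The higher one was CTSK, by 1.0 ± 0.07. The lowest were the COL11A1 probe set axo00377, at -1.95 ± 0.12, ANKRD2, at -1.77 ± 0.06, and KERA, at -1.71 ± 0.11. SIGLEC1 differed by -0.09 ± 0.09 and R3HDML by -0.12 ± 0.05, and neither was called.

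At 1 day against uninjured cord, whose arrays had likewise all entered the rule, the counts are again a description from which nothing is read: 37 peaks were called higher (78.7%, against 25.1% of all probe sets) and 3 were lower (6.4%, against 28.8%). The median difference was 0.55. The arrays of both groups did not overlap in 37 peaks (78.7%) and 30 troughs (88.2%), against 59.4% of all probe sets. The largest of these differences were those of the PDLIM5 probe set axo16899, at 2.14 ± 0.07 (SE), SMTNL2, a smoothelin-like gene, at 1.8 ± 0.11, SUSD3, at 1.71 ± 0.05, and CA3, at 1.7 ± 0.1. The CBX1 member, the helicase gene PIF1 and a HARBI1 probe set were the lower ones. The HARBI1 call was lost without uninjured replicate 2 or without 1 day replicate 2. Troughs split at 1 day: 19 were lower (55.9%) and 6 were higher (17.6%), with a median of -0.36. The higher ones were MRI1, by 1.87 ± 0.07, a DES probe set (axo07722), by 0.7 ± 0.04, TP53INP1, RCAN1, RHOB and TBRG4. All 4 genes of cell division and DNA repair were lower, by 0.45 to 1.01 (differences of -0.45 to -1.01). None of the 9 matrix probe sets was called higher and 6 were lower, KERA most, at -1.99 ± 0.11. At an unadjusted p under 0.05 the troughs had 7 higher and 20 lower. These comparisons share the uninjured arrays and cross between the sides of the study described above.

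The ivermectin arrays were not used by the rule, and the 1 day arrays they were set against were. The counts are therefore a description, and nothing is read from them against the shares of all probe sets. The adjusted p of single members carries the same limit. With ivermectin all 47 peaks lay within 0.5 of uninjured cord. For the peaks this comparison thus largely repeats that of 1 day against uninjured cord, in which 37 were called higher. Of the 47 peaks, 37 were lower with ivermectin than at 1 day without it (78.7%, against 25.4% of all probe sets called lower). By limma 0 peaks were called higher, against 29.6% of all probe sets, and 1 had an unadjusted p under 0.05. The median difference was -0.42, beside a median of 0 over all probe sets. The arrays of both groups did not overlap in 38 peaks (80.9%) and 32 troughs (94.1%), against 60.4% of all probe sets. The PDLIM5 member read 5.76, 6.01 and 5.84 with ivermectin, against 8.04, 7.94 and 8.03 at 1 day. That is a difference of -2.13 ± 0.07 (SE; adjusted p = 2.09e-12), whereas the PDLIM5 probe set axo16877 averaged 8.02 with ivermectin, against 7.98 at 1 day. CA3 read 4.95, 5.09 and 5.14 with ivermectin, against 7.21, 6.98 and 6.95 at 1 day, a difference of -1.99 ± 0.1 (adjusted p = 2.18e-10). SUSD3 differed by -1.81 ± 0.05 (adjusted p = 4.94e-13) and the MYH10 member by -1.74 ± 0.08 (adjusted p = 5.93e-11). In all 4 the arrays did not overlap. SLC39A8, the peak with the largest margin, read 6.91, 6.76 and 6.96 with ivermectin, against 6.58, 6.87 and 6.79 at 1 day, and was not called (adjusted p = 0.191).

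Among the 34 troughs, 20 were higher with ivermectin than at 1 day (58.8%, against 29.6% of all probe sets) and 9 were lower (26.5%, against 25.4%), with a median of 0.34. The share called lower is near the background, and, as for the peaks, nothing is read from these counts. The RPGR member differed most, by 2.14 ± 0.25 (adjusted p = 2.51e-06), followed by KERA, by 1.92 ± 0.11 (adjusted p = 8.47e-10), the TWF2 member, by 1.77 ± 0.06 (adjusted p = 3.73e-12), and the COL11A1 member, by 1.64 ± 0.12 (adjusted p = 1.56e-08). A brighter TWF2 probe set, axo12848, differed less, at 10.48 with ivermectin and 10.18 at 1 day. Further RPGR probe sets averaged 3.55 to 3.8 in all groups, below the lower quartiles. The brighter COL11A1 probe set axo00376 was on the other side, at 10.93 with ivermectin, against 11.48 at 1 day. The ivermectin arrays of KERA read 9.97, 9.84 and 9.67, against 7.74, 8.03 and 7.97 at 1 day. The 4 genes of cell division and DNA repair were all higher, by 0.34 to 0.99. Among the 9 lower troughs, MRI1 differed most, at 6.86, 6.98 and 6.94 with ivermectin against 8.62, 8.51 and 8.58 at 1 day (-1.64 ± 0.07, adjusted p = 6.35e-11). RHOB, RCAN1 and TP53INP1 were lower as well, by 0.93 to 1.0 (differences of -0.94, -0.93 and -1.0). The COL12A1 member was also among the lower ones (-0.64 ± 0.18, adjusted p = 0.00718). This comparison too crosses between the sides of the study.

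Against uninjured cord, on the same side of the study, few members were called with ivermectin. The uninjured arrays had entered the rule, so these counts too are a description from which nothing is read. The adjusted p of single members has this limit as well. Of the 47 peaks, 2 were higher (4.3%, against 3.02% of all probe sets) and 2 were lower (4.3%, against 3.93%), which is near the background. All 47 differences lay within 0.5, with a median of -0.02. All 3 arrays lay below the lower quartile in 11 peaks in uninjured cord and in 10 with ivermectin, so a small difference there shows little. The arrays of both groups did not overlap in 14 peaks (29.8%) and 16 troughs (47.1%), against 23.1% of all probe sets. TSPAN1, a tetraspanin, was higher, at 7.14, 7.16 and 7.18 with ivermectin against 6.83, 6.66 and 6.67 in uninjured cord (0.44 ± 0.06, adjusted p = 0.000296), as was a NEB probe set (axo10199), by 0.28 ± 0.08 (adjusted p = 0.0452). The ETHE1 member was lower, by 0.44 (-0.44 ± 0.05, adjusted p = 0.000103), as was CALB1 (-0.32 ± 0.06, adjusted p = 0.00639). Of the 34 troughs, 2 were higher (5.9%, against 3.02% of all probe sets) and 5 were lower (14.7%, against 3.93%). Troughs were chosen for uninjured means above those of 3 days, so the share called lower is not read as a result. The higher ones were ANKRD2 (0.3 ± 0.06, adjusted p = 0.00729) and SERPINB1 (0.3 ± 0.07, adjusted p = 0.0201). The lower ones were RHOB (-0.52 ± 0.08, adjusted p = 0.000573), RCAN1 (-0.47 ± 0.05, adjusted p = 4.15e-05), TP53INP1 (-0.37 ± 0.09, adjusted p = 0.0245), a DES probe set (axo07720) and MKRN1. RHOB read 7.92, 8.09 and 8.06 with ivermectin, against 8.47, 8.56 and 8.59 in uninjured cord, so its arrays did not overlap. The calls of TP53INP1 and SERPINB1 were lost when single arrays were left out: that of TP53INP1 without any of the 3 uninjured replicates or without ivermectin replicate 1 or 2, and that of SERPINB1 without uninjured replicate 2 or without ivermectin replicate 1 or 3, at adjusted p = 0.0509 to 0.101 in limma. The call of CALB1 was lost with the compared groups only (adjusted p = 0.0521). In the same setting, and without some single arrays, the number of higher peaks fell from 2 to 1. TSPAN1 kept its call there, so the NEB call was the one lost.

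**Figure D4:**
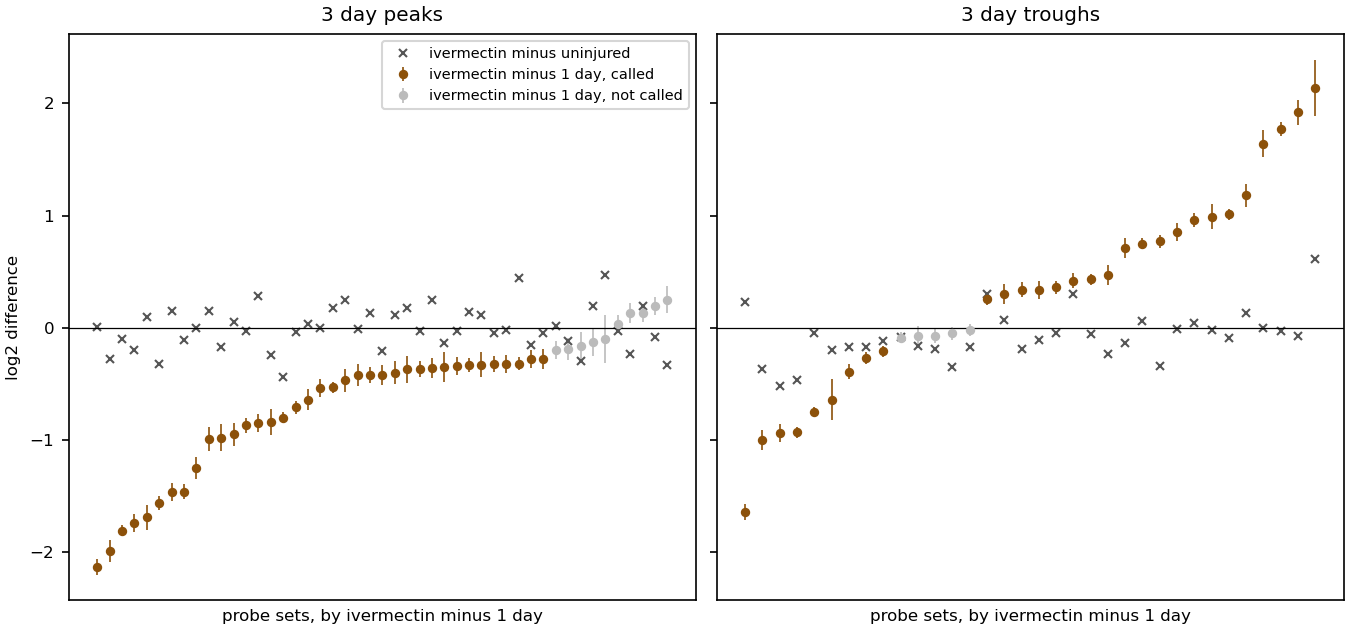
Each position is a member probe set, ordered by its log2 difference of ivermectin minus 1 day (circles with SE bars from limma, brown where called at an adjusted p under 0.05 and grey where not); crosses give ivermectin minus uninjured. For peaks the circles run from -2.13 to 0.25 and for troughs from -1.64 to 2.14, while the crosses stay between -0.52 and 0.61.

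Other probe sets of the member genes were not always alike. Leaving out HARBI1 and PIF1, which have relatives among transposons and whose values cannot be assigned to 1 gene copy with certainty, 17 peak genes had 37 further probe sets, of which 21 were highest at 3 days, 9 lay between the other groups and 7 were lowest. The 22 further probe sets of trough genes were lowest in 16, between in 4 and highest in 2. All 4 further TTN probe sets were highest at 3 days. So was the bright NEB probe set axo10191, at 12.71 against 12.14 at 7 days. The other 4 of NEB never averaged over 4.03, below the lower quartiles, and 2 of the 3 further PVALB probe sets read 13.84 to 14.4, near the top of the scale, so the order of their groups shows little. The third, axo08602, averaged 8.86 in uninjured cord, and 13.37, 14.11 and 13.79 at 1, 3 and 7 days, near the top of the scale as well. Besides ABCA1, SLC4A4, PDLIM5, MYH10, CBX1, COL2A1, COL11A1 and COL12A1, described above, genes with probe sets that disagreed included ACSBG1, an acyl-CoA synthetase. In it 4 of 5 further probe sets were lowest at 3 days, opposite to the member. Further probe sets of ETHE1 and AIFM3 were highest at 1 day, at 8.83 and 7.23, against 8.44 and 7.12 at 3 days. That of SULT6B1 averaged 9.15 to 9.4 in all groups. The further RPL3 probe set read 13.97 to 14.05 in all groups, whereas the member averaged 3.62 in uninjured cord and 6.48 at 3 days. The further DES probe set lay between the other groups, at 11.66 at 3 days, while both members fell. These genes are therefore described by probe set, and what each such probe set detects was not tested.

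The members were also read beside the other genes of their pathways and tissues, in textbook lists with 1 probe set a gene. Because the members were taken out of each list, the counts below cover the other genes. Of 43 other skeletal muscle genes, 24 were higher and 10 lower at 3 days than at 1 day, against 21.9% higher and 18.7% lower of all probe sets, and 25 were higher and 6 lower than at 7 days, against 18.6% and 22.2%. The median differences were 0.17 and 0.24. Against uninjured cord 40 of the 43 were higher at 3 days and 0 were lower by limma, also at an unadjusted p under 0.05, with a median of 1.18; over all probe sets 29.8% were higher and 30.2% lower. The summed level of the whole muscle list on the linear scale was 122773 to 124562 in uninjured arrays, 190354 to 192944 at 1 day, 222390 to 223364 at 3 days and 198299 to 202257 at 7 days. This sum includes the peak genes TTN, NEB and PVALB, each by its brightest probe set. Nothing is therefore read from it about the other muscle genes. The list also held a trough, DES, whose 2 members averaged 12.79 and 9.67 in uninjured cord and 11.97 and 7.42 at 3 days. ANKRD2, another muscle gene among the troughs, averaged 8.14 in uninjured cord and 5.3 at 3 days. The part of muscle RNA in the muscle peaks and troughs was not tested.

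The kidney tubule list held 4 peaks, SLC2A2, SLC13A2, SLC4A4 and CALB1, and 22 other measured genes. Of these others 11 were higher and 4 lower at 3 days than at 1 day, and 10 were higher and 4 lower than at 7 days, with medians of 0.2 and 0.13. Against uninjured cord 13 were higher and 5 lower. Over all probe sets, 21.9% were higher and 18.7% lower at 3 days than at 1 day. Against 7 days these shares were 18.6% and 22.2%, and against uninjured cord 29.8% and 30.2%. The defining tubule genes did not move together: LRP2 averaged 3.88, 3.7, 4.78 and 4.47 in uninjured cord and at 1, 3 and 7 days, UMOD 11.62, 12.58, 10.62 and 10.93, and HNF4A stayed below the lower quartile on all arrays. The linear sum of the list, members included, was 7869 to 8091 at 3 days, against 10441 to 10524 at 1 day. UMOD carried that order: without it, a sum added after the data were seen, the other 25 genes summed to 6383 to 6474 at 3 days, against 4249 to 4436 at 1 day. These 25 include the 4 peaks, which were chosen for being high at 3 days. Nothing is therefore read from this sum about the other tubule genes. Of 24 other liver genes, 10 were higher and 5 lower than at 1 day, and 3 were higher and 7 lower than at 7 days. Against uninjured cord 12 of these liver genes were higher and 6 lower. Of 46 other genes of fatty acid oxidation, 28 were higher and 7 lower at 3 days than in uninjured cord, 19 were higher and 6 lower than at 1 day, and 8 were higher and 8 lower than at 7 days. Of 38 others of xenobiotic, steroid and retinoid metabolism, 19 were higher and 6 lower than in uninjured cord, 15 were higher and 8 lower than at 1 day, and 9 were higher and 12 lower than at 7 days. Against 7 days, the liver and fatty acid counts lay near the shares of all probe sets, so nothing is read from them. The list of cholesterol synthesis and uptake held no member. Of its 18 genes, 3 were higher and 11 lower at 3 days than in uninjured cord, with a median of -0.28. Against 1 day 3 were higher and 2 lower, and against 7 days 2 were higher and 4 lower.

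Of 21 other genes of cartilage, bone and connective tissue, 3 were higher and 11 lower at 3 days than at 1 day, and 1 was higher and 10 lower than at 7 days. Against uninjured cord 7 were higher and 8 lower, with a median of -0.02, which is near the 29.8% and 30.2% of all probe sets. Against 1 day these shares were 21.9% and 18.7%, and against 7 days 18.6% and 22.2%, here and for the lists below. Close to the trough threshold, and named after their values were seen, were COL9A2 and COL9A3, the partner chains of COL9A1, with margins of -0.61 and -0.62, and EPYC, a cartilage proteoglycan, with -0.7. Other connective tissue genes ran the other way: ACAN, the main cartilage proteoglycan, averaged 8.37 in uninjured cord, 9.83 at 1 day, 9.97 at 3 days and 10.38 at 7 days. Structural matrix genes formed a separate list, which held the trough genes FBLN1 and COL12A1. Of its 44 other genes, 31 were higher and 7 lower at 3 days than in uninjured cord, with a median of 0.59. Compared with 1 day, 11 were higher and 20 lower, and compared with 7 days, 5 were higher and 25 lower. Most of these matrix genes thus stood above uninjured cord at 3 days, unlike the matrix troughs. Of 52 other G2 and M phase genes, 45 were lower at 3 days than in uninjured cord and 3 higher, 13 were lower and 14 higher than at 1 day, and 22 were lower and 5 higher than at 7 days. Of 24 other macrophage and leukocyte genes, 13 were higher and 3 lower at 3 days than at 1 day, opposite to SIGLEC1, and 1 was higher and 14 lower than at 7 days, with a median of -0.22, the direction of SIGLEC1. Against uninjured cord 11 were higher and 8 lower. The summed level of the whole list, SIGLEC1 included, was 21551 to 21605 at 3 days and 15789 to 16241 at 1 day.

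The list of epidermis and keratinocyte genes, which held no member, also moved between the groups. Of its 31 genes, 27 were lower at 3 days than in uninjured cord and 0 were higher by limma, also at an unadjusted p under 0.05, with a median of -0.97. Against 1 day 20 were lower and 0 higher, again 0 at an unadjusted p under 0.05, with a median of -0.3, and against 7 days 13 were higher and 2 lower. Over all probe sets 30.2% were lower at 3 days than in uninjured cord, 18.7% lower than at 1 day and 18.6% higher than at 7 days. TP63, the master regulator of stratified epithelia, averaged 7.0 in uninjured cord, 6.8 at 1 day, 5.04 at 3 days and 5.14 at 7 days, and GRHL3, a factor of the epidermal barrier, 10.25, 9.7, 7.89 and 7.68. The summed level of the list was 64023 to 65686 in uninjured arrays, 52499 to 52916 at 1 day, 41867 to 42127 at 3 days and 37688 to 39034 at 7 days. The part of epidermal RNA in the troughs was not tested.

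**Figure D5:**
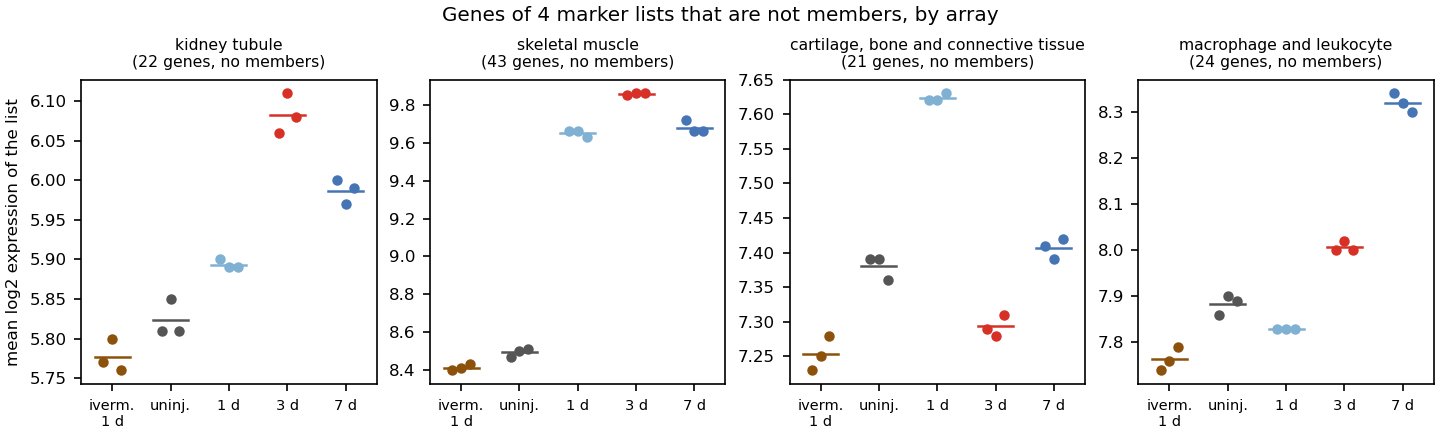
Mean log2 expression of the genes of 4 marker lists that are not members, on each array (points) with the group mean (lines), on axes that do not start at 0. The kidney tubule genes, at 6.06 to 6.11, and the skeletal muscle genes, at 9.85 to 9.86, are highest at 3 days, the macrophage and leukocyte genes are highest at 7 days, at 8.3 to 8.34, and the cartilage, bone and connective tissue genes are highest at 1 day, at 7.62 to 7.63.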

How the data were processed

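RNA of spinal cord tissue was measured on 15 Affymetrix axolotl arrays, 5 groups of 3. The deposited values are log2 expression per probe set, made by the authors with RMA in Affymetrix Expression Console, per the submitters' processing notes, which give no versions; RMA corrects background, normalizes quantiles between arrays and summarizes probes. Whether all arrays were normalized together is not given in the sources used here. RNA was extracted with Trizol and 150 ng were labelled by 3' IVT, per the labels' protocols. Values were used as deposited, with no detection call. Arrays carry no count depth, and their number limits the precision. No 2 arrays held identical values.

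Of 20080 rows, 45 control probe sets were set aside. Of the other probe sets, 10951 carried a gene symbol and 9084 did not. All 76 member symbols were found in RefSeq's axolotl annotation. The 5 group means were estimated in a single limma 3.58.1 fit over the 15 arrays (R 4.3.3; lmFit, eBayes; 10 residual and 4.26 prior degrees of freedom), 2-sided, with Benjamini-Hochberg adjustment over 20035 probe sets in each of 7 comparisons: 4 were read for the members, and the 3 of 3 days against the other groups were tested only for list genes that are not members. Replicates were pools, so p-values measure only how pools differ. Replicate numbers did not pair the arrays (median correlation of deviations -0.0062 over 30 pairs, 1 of them over 0.1).

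Members and lists were chosen with earlier results of these data known, and roles were assigned after values were seen. Genes named were the 12 with the largest margin of each kind, list members, those with several member probe sets, those nearest the threshold, the up to 4 largest called differences in each comparison, and those whose 7 day mean lay nearest to and farthest from uninjured; others were chosen after their values were seen. For lists, the probe set with the highest mean stood for a gene. The fit was tested on simulated data for ivermectin against 1 day. Of 100 probe sets shifted by 0.3 (log2) it recovered 42, and of 100 shifted by 0.5 it recovered 80, with 4 false calls. Differences of such sizes can therefore go uncalled. Alternatives were a replicate block, the compared groups only, an intensity trend, array weights, median centring, cyclic loess, leaving out dim probe sets (lowest 25%), other thresholds, genes in place of probe sets and leaving out each array. Figures were drawn with matplotlib 3.10.9.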

Additional observations from a re-analysis of the deposited data

Results flagged for a closer look

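Poly-A control probe sets, which read RNA added in the laboratory and no tissue RNA, averaged 0.79 higher (log2) on the 3 day arrays than on the uninjured arrays, a signal outside the tissue measurement and above its level in uninjured cord. The group means were 8.33 ± 0.0955 at 3 days and 7.54 ± 0.0286 in uninjured cord (SD, n = 3 each, 24 probe sets). Its part in the 3 day peaks and troughs was not tested. Groups of 3 arrays are too small for a check for single outlying arrays.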

How the results depend on the processing

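The number of members followed the rule's settings: a threshold of 0.6 gave 77 peaks and 99 troughs, 1.0 gave 29 and 14, and the brightest probe set per gene gave 30 peaks. Requiring every 3 day array to pass every other array by 0.8, chosen after seeing the data, gave 27 peaks and 17 troughs. Cyclic loess gave 49 peaks and 30 troughs, of which 45 and 27 were members, and median centring gave 52 and 25, with 47 and 25 members. Leaving out 1 array gave 45 to 49 peaks and 33 to 38 troughs.

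Among tested counts, peaks higher with ivermectin than at 1 day, 0 by limma, were 2 with the compared groups only, 1 with array weights and 1 without dim probe sets; leaving out 1 array gave 0 to 2, the most without 7 day replicate 3, and 1 without uninjured replicate 3, 1 day replicate 1, 3 day replicate 2, or 7 day replicate 1 or 2. Peaks higher with ivermectin than in uninjured cord, 2, were 1 with the compared groups only and 1 to 3 with 1 array left out; they were 1 without any uninjured or 3 day replicate, 1 day replicate 2 or 3, or ivermectin replicate 3. Troughs higher there were 1 to 3, with 1 without uninjured replicate 2 or ivermectin replicate 1 or 3. Troughs higher at 7 days than in uninjured cord, 1, were 2 with an intensity trend, array weights or median centring, and 1 to 2 with 1 array left out, being 2 without uninjured replicate 1, 1 day replicate 1 or 7 day replicate 1. The other counts with 1 array left out were, for ivermectin against 1 day, 33 to 38 peaks lower, 19 to 20 troughs higher and 9 lower; for ivermectin against uninjured cord, 2 to 3 peaks lower and 4 to 6 troughs lower; for 7 days, 42 to 43 peaks higher, 2 to 3 lower and 23 to 26 troughs lower; and for 1 day, 33 to 38 peaks higher, 2 to 3 lower, 6 to 7 troughs higher and 18 to 20 lower. The causes were not tested.

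With the replicate number as a block, 37 peaks were lower and 0 higher with ivermectin than at 1 day, 36 peaks were higher at 1 day and 43 at 7 days than in uninjured cord, and no count of calls moved by over 1.5 times; the numbers do not pair the arrays. Of 1034 alternative values for the named called genes, 1023 kept direction and call, and 11 in 4 results lost the call. CALB1 between ivermectin and uninjured cord had an adjusted p of 0.0521 in limma with the compared groups only, and SERPINB1 and TP53INP1 there, and a HARBI1 probe set at 1 day, lost theirs when single arrays were left out. The call of the NEB probe set axo10199 between ivermectin and uninjured cord was not among the 1034 values.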
